A study of Mus musculus with 8 samples.

Results

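The features described here are copies of ribosomal protein (RP) genes that the gene annotation names as pseudogenes and that carried RNA-seq reads in leukaemia stem cells. They were taken from the deposited table by a symbol of the form Rpl or Rps followed by -ps and by a level of at least 1 FPKM (fragments per kilobase of transcript and per M mapped reads, M for mega) in 4 or more of the 8 libraries. The symbol matched 306 of the 48500 rows, and 152 of them met the level. The members come from 52 parent genes, the functional RP genes that their symbols name. The level itself chose the members, so how high they stand is a description and not a finding.

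HOXA9 and MEIS1 drive the acute myeloid leukaemia of these mice. Bone marrow was sorted for GFP+ c-Kit+ Gr-1- cells, about 10000 to a library. The 4 WT libraries (WT1 to WT4, Nynrin+/+) were compared with 4 Nynrin-KO libraries (KO1 to KO4, Nynrin-/-), and every group carries the same leukaemia drivers. Nynrin encodes a protein with a NYN ribonuclease domain, and the sources used here do not say which part of the gene was deleted. The labels do not say whether each library is a mouse of its own, so a p-value here measures spread between libraries, which may be technical.

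Ribosomal proteins are the protein components of the small subunit (Rps genes) and the large subunit (Rpl and Rplp genes) of the ribosome, and their mRNAs are among the most abundant of growing cells. Abundant mRNAs are at times reverse transcribed and inserted elsewhere in the genome, which leaves a processed pseudogene, a copy without introns and usually without the promoter of its parent. Such a copy can stay near identical to the parent mRNA, so a short read from one can match the other, and a read count for the copy need not mean that the copy is transcribed.

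The 8 libraries differ in ways that cross or follow the groups. Recovered depth ran from 1.83 M reads in KO3 and 1.96 in WT3 to 33.09 in WT1, and 3 reads on a 1 kb transcript correspond to 1.64 FPKM in KO3 but to 0.0907 FPKM in WT1. The median length of the members is 495.5 bases, and 3 reads on a copy of that length correspond to higher values. Gm10800, a gene model that resembles satellite repeats, stood at 3349 to 6076 FPKM in WT1, KO2 and KO4, the 3 deepest libraries, and at 28612 to 142258 FPKM in the other 5. Xist, a noncoding RNA that coats the inactive X, was at 15.2 to 26.5 FPKM in WT and at 12.7 FPKM in KO1 but at most 0.366 FPKM in KO2 to KO4. Y-linked Ddx3y was at most 0.111 FPKM in WT, 2.18 FPKM in KO1 and 18.2 to 20.7 FPKM in KO2 to KO4, so in most libraries genotype and sex cannot be told apart. Nynrin itself was at 0.008 to 0.286 FPKM in WT and 0.0982 to 0.437 FPKM in Nynrin-KO, too low for the filter of the test, so it does not check the labels. Kit, the gene of the sorted antigen c-Kit, was at 2.63 to 6.40 FPKM in WT and 2.92 to 4.91 FPKM in Nynrin-KO, and limma gave an adjusted p of 0.405. The other genes of the leukaemia stem cell list differed. Cd34 was at 55.7 to 151 FPKM in WT and 5.54 to 7.30 FPKM in Nynrin-KO (limma adjusted p = 0.000929), and Flt3 was lower too (0.0248). Hoxa9 and Meis1 were higher in Nynrin-KO (limma adjusted p = 0.0397 and 0.00466), and both were low in WT. Hoxa9 was at 0.569 to 1.90 FPKM in WT and 1.70 to 6.38 FPKM in Nynrin-KO. Meis1 was at 0.664 to 0.898 FPKM in WT and 2.03 to 5.125 FPKM in Nynrin-KO. Of 13 mature neutrophil markers 8 were higher in Nynrin-KO and 0 lower, with a summed level of 3004 to 104682 FPKM in WT and 125165 to 283955 FPKM in Nynrin-KO. The lowest WT sum is that of WT1, which was the lowest WT library for each of these markers. S100a8, for example, was at 1288 FPKM in WT1 and at 26206 to 45965 FPKM in WT2 to WT4. Of 7 macrophage markers 5 were higher in Nynrin-KO, with sums of 141 to 253 FPKM in WT and 327 to 890 FPKM in Nynrin-KO. The part of these cells in the results on RP pseudogenes was not tested.

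By annotation 138 of the 152 members are processed pseudogenes, 8 are transcribed processed pseudogenes and 6 (Rpl10-ps3, Rpl36a-ps1, Rpl9-ps1, Rpl9-ps6, Rps12-ps3 and Rps18-ps5) are annotated as protein coding. They lie on 20 chromosomes, and 145 have a single exon. No other gene overlaps 90 of them, while 40 lie in an intron of a gene on the opposite strand and 21 in an intron of a gene on the same strand. The largest families are those of Rps19 with 10 members, Rpl21 with 9, and Rps2 and Rpsa with 8 each.

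A set of 3 copies shows how far the members range from their parents, and they are shown because the results turn on how many bases tell a copy from its parent. Each line holds 120 bases, 5′ to 3′, from the GENCODE M21 transcripts (GRCm38, also called mm10), chosen by script as the ungapped stretch of the parent coding sequence with the most differences, and capitals mark the bases that differ. Rpl14-ps1 (stretch at chr7:45325268-45325387, plus strand) is the member with the highest mean level, and its stretch has 2 differences from Rpl14.
Rpl14-ps1: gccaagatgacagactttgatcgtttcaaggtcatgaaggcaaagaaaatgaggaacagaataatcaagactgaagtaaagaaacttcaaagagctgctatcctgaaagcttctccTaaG
Rpl14: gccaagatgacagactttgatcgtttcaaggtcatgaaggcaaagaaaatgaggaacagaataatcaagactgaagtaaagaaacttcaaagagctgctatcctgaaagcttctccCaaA

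Rpl36a-ps3 (stretch at chr6:136488812-136488931, plus strand) is named after Rpl36a but lies nearer to the related gene Rpl36al. In its stretch it has 19 differences from Rpl36a and 1 from Rpl36al.
Rpl36a-ps3: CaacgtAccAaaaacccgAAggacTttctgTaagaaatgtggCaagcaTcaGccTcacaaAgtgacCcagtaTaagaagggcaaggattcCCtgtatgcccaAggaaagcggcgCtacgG
Rpl36a: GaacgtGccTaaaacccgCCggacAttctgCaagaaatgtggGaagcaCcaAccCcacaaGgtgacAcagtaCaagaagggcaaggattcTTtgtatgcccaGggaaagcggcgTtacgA
Rpl36al: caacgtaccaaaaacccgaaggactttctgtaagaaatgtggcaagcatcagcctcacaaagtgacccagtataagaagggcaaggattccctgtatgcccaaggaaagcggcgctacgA

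Rps16-ps3 (stretch at chr8:10808693-10808812, minus strand) is among the members least like their parent, with 13 differences from Rps16 in its stretch.
Rps16-ps3: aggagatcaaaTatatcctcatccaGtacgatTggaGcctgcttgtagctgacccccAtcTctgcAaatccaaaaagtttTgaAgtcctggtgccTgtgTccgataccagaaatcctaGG
Rps16: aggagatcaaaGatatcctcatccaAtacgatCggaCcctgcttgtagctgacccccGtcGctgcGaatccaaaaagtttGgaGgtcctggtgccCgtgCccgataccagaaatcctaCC

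Resemblance to the parent, which the rule did not use, went with level. The median identity of a member to its parent transcript over the aligned bases was 98.5%, against 92.0% for the 154 rows with such a symbol that missed the level. Of the members 13 were identical to the parent and 54 at least 99% identical, whereas 0 and 7 of the rows below the level were. A median of 62.7% of the 50-base windows of a member occur letter for letter in transcripts of another gene, against 15.2% for the rows below the level. In 19 members all such windows do, in 19 under 10% do, and Rps19-ps11 is the member with none. These windows stand in for reads, since the sources used here give neither the read length nor the handling of reads that match several places.

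Among the members themselves, the median of the mean levels was 26.2 FPKM over the 13 identical copies, 9.90 FPKM over the 41 copies of 99% to under 100% identity, 2.88 FPKM over the 64 of 95% to under 99%, and 1.92 FPKM over the 34 under 95%. The last class includes Rpl18-ps1, which did not align to Rpl18. Because levels chose the members, this order is a description.

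**Figure D1:**
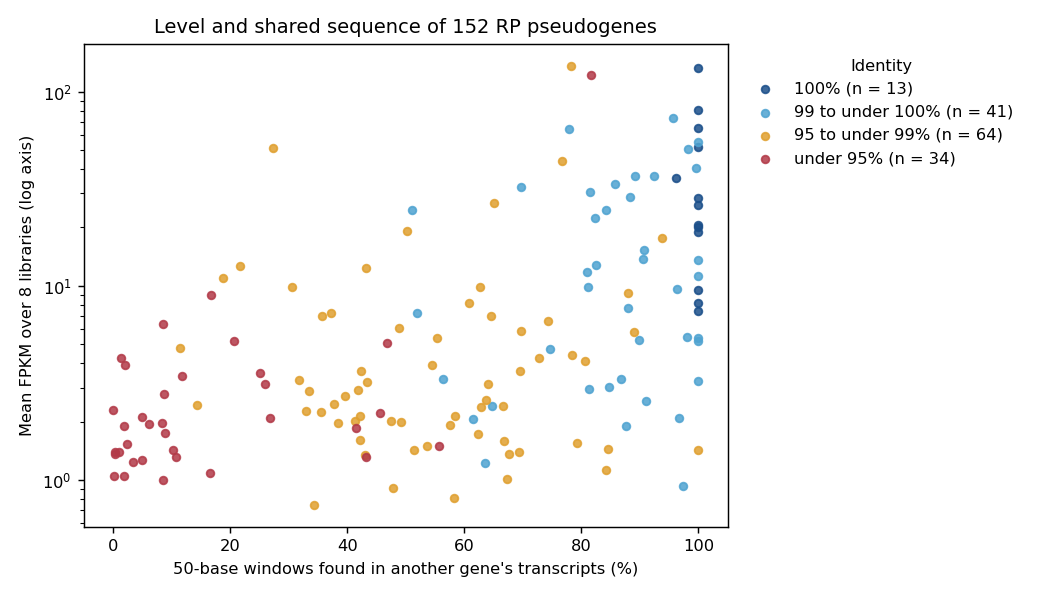
Mean FPKM over the 8 libraries (log axis) of each of the 152 RP pseudogenes against the percent of its 50-base windows that occur in transcripts of another gene, coloured by identity to the parent. The 13 identical copies gather at the right, and the members with few shared windows mostly lie below 10 FPKM.

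Rows lay close to the threshold on both sides. Just inside it, the fourth-highest value among the 8 libraries was 1.005 FPKM in Rpl13-ps5, 1.03 in Rpl7a-ps3 and 1.04 in Rpl7-ps8. Just outside it was 0.951 FPKM in Rpl7a-ps1, 0.933 in Rpl15-ps4 and 0.921 in Rpl13-ps2. Of the members 63 reached 1 FPKM in all 8 libraries, 10 passed through the 4 WT libraries alone and 0 through the 4 Nynrin-KO libraries alone.

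RP pseudogenes were lower in Nynrin-KO as a group of rows, and so were their parents. The summed level of the 152 members was 4228, 3528, 2390 and 2345 FPKM in WT1 to WT4 and 737, 718, 877 and 779 FPKM in KO1 to KO4. The means were 3123 ± 918 and 778 ± 70.7 FPKM (SD, n = 4 each), and the groups do not overlap (exact two-sided permutation p = 0.0286, the smallest possible with 4 against 4). The members were chosen by level, and 10 passed through the 4 WT libraries alone against 0 through the 4 Nynrin-KO libraries alone. The sum of the members and its p are therefore a description. The summed level of the 52 parents was 29078 ± 9873 and 7551 ± 1279 FPKM (SD, n = 4 each, exact permutation p = 0.0286). FPKM are relative to the reads of each library, so fewer cells of a type and less RNA per cell cannot be told apart.

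The ratio of both sums did not move detectably. For every 100 FPKM of the parents the members held 9.90, 11.8, 11.5 and 10.2 FPKM in WT1 to WT4 and 10.3, 9.08, 14.5 and 8.56 FPKM in KO1 to KO4. The means were 10.9 ± 0.938 and 10.6 ± 2.67 (SD, n = 4 each, exact permutation p = 0.943). KO3, the shallowest library, was the highest of all 8, and without it the difference was -1.53 with an exact permutation p of 0.143. Of all reads, the members took 0.170% in WT but 0.0422% in Nynrin-KO.

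Each feature was tested with limma on log2(FPKM + 1), with Benjamini-Hochberg adjustment over 12524 features and a threshold of 0.05. Of the 152 members 78 were lower in Nynrin-KO, where 13.8% of all features tested were, and 0 were higher, where 14% of all features were. At an unadjusted p under 0.05 there were 104 lower and 0 higher, and voom, a limma method for counts, called 99 lower and 0 higher on the reads recovered from the values, where it called 18.6% of all features lower and 19.8% higher. The median difference over the members was -1.27 on the log2 scale, against -0.03 over all features. A member that passed the level through WT alone had to differ, so these counts are a description. Groups did not overlap for 71 members, all lower in Nynrin-KO, where 15% of all features were lower without overlap. Among the 63 members present at 1 FPKM in all 8 libraries, which leaves out those that passed through 1 group alone, 54 were lower. In a separate limma fit over the 8224 features at that level in all libraries, 58 of the 63 were lower, where 19.7% of all features were.

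The parents were tested in the same fit, and 51 of 52 passed the filter. All 51 were lower in Nynrin-KO, with a median of -1.86 on the log2 scale. Rplp0, which encodes a protein of the ribosomal stalk, was the highest parent. It fell from 3739 ± 1018 to 850 ± 204 FPKM (SD, n = 4 each, log2 difference -2.13, limma adjusted p = 0.00157). Of the other high parents, Rpl10 fell by 1.78 and Rps2 by 2.40 on the log2 scale. In the wider list of RP genes 79 of 82 tested were lower and 0 higher, with a median of -1.90. The 3 that did not pass were Rpl24, the muscle gene Rpl3l, and Rps19bp1, which the pattern of the list catches although its product is not a ribosomal protein.

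Other pseudogenes were also lower more often than higher, at smaller shares. Of 147 tested pseudogenes named after a gene that is no RP gene 38 were lower and 6 higher, with a median of -0.62. Of 1482 tested rows annotated as processed pseudogenes, members left out, 356 were lower and 19 higher, with a median of -0.72. Only the members were taken out of this list. It can therefore share rows with the list of named pseudogenes and can hold RP copies under other symbols. Whether the RP pseudogenes differ from these lists was not tested.

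Each of the 8 members with the highest mean level was lower in all 4 Nynrin-KO libraries than in any WT library. Rpl14-ps1, a copy of the large-subunit gene Rpl14 in an intron of Trpm4 on the opposite strand, was at 350, 227, 153 and 169 FPKM in WT1 to WT4 and at 44.3, 45.3, 38.6 and 59.5 FPKM in KO1 to KO4. It fell by 2.18 on the log2 scale (SE 0.28, limma adjusted p = 0.0019). The parent fell by the same 2.18, and the copy stood at 42.4% to 52.7% of the FPKM of Rpl14 in the 8 libraries, with the values for WT3 and KO3, the shallowest libraries, at the top.

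Rpl36a-ps2 and Rpl36a-ps3 are copies of Rpl36a, which encodes a large-subunit protein. Rpl36a-ps2, identical to its parent over 321 bases, was at 275, 300.2, 197 and 136 FPKM in WT1 to WT4 and at 31.2, 38.4, 44.3 and 32.8 FPKM in KO1 to KO4 (log2 difference -2.54, SE 0.27, limma adjusted p = 0.00136). Rpl36a-ps3, the copy shown above with 87.5% identity to Rpl36a and 99.7% to Rpl36al, was at 255, 281, 168 and 146 FPKM in WT and at 25.3, 33.1, 46.0 and 26.2 FPKM in Nynrin-KO (-2.65, SE 0.28, adjusted p = 0.00135). Both copies had the same order of libraries, with WT2 highest and WT4 lowest in WT, and KO3 highest in Nynrin-KO. Rpl36a had another order, with WT1 highest (451 FPKM) and WT3 lowest (233 FPKM) in WT. In Nynrin-KO its lowest library was KO3 (59.3 FPKM).

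Small-subunit copies followed. Rps16-ps2, identical to Rps16, was at 199, 128, 103 and 95.5 FPKM in WT1 to WT4 and at 23.2, 34.6, 27.3 and 36.7 FPKM in KO1 to KO4 (log2 difference -2.03, SE 0.27, limma adjusted p = 0.00195). Rps6-ps4, identical to Rps6, whose product is the phosphorylated ribosomal protein S6, was at 162, 116, 60.5 and 90.9 FPKM in WT and at 23.3, 21.9, 16.8 and 29.0 FPKM in Nynrin-KO (-2.12, adjusted p = 0.0024). Rps7-ps3, 99.4% identical to Rps7, was at 147, 107, 65.0 and 75.0 FPKM in WT and at 26.2, 22.6, 35.3 and 33.9 FPKM in Nynrin-KO (-1.65, adjusted p = 0.00423). WT1, the deepest WT library, was the highest WT library for all 3 of these copies.

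Of the remaining large-subunit copies among the 8, Rpl3-ps1, which differs from Rpl3 by 2 bases in 1210, was at 176, 126, 98.96 and 101 FPKM in WT1 to WT4 and at 21.3, 20.2, 18.1 and 27.9 FPKM in KO1 to KO4 (log2 difference -2.44, SE 0.24, limma adjusted p = 0.00104). Rpl34-ps1, 99.4% identical to Rpl34, was at 140, 91.0, 46.1 and 61.0 FPKM in WT and at 19.96, 31.1, 20.1 and 30.3 FPKM in Nynrin-KO (-1.60, adjusted p = 0.00983). Its lowest WT library, WT3, still lay above its highest Nynrin-KO library.

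**Figure D2:**
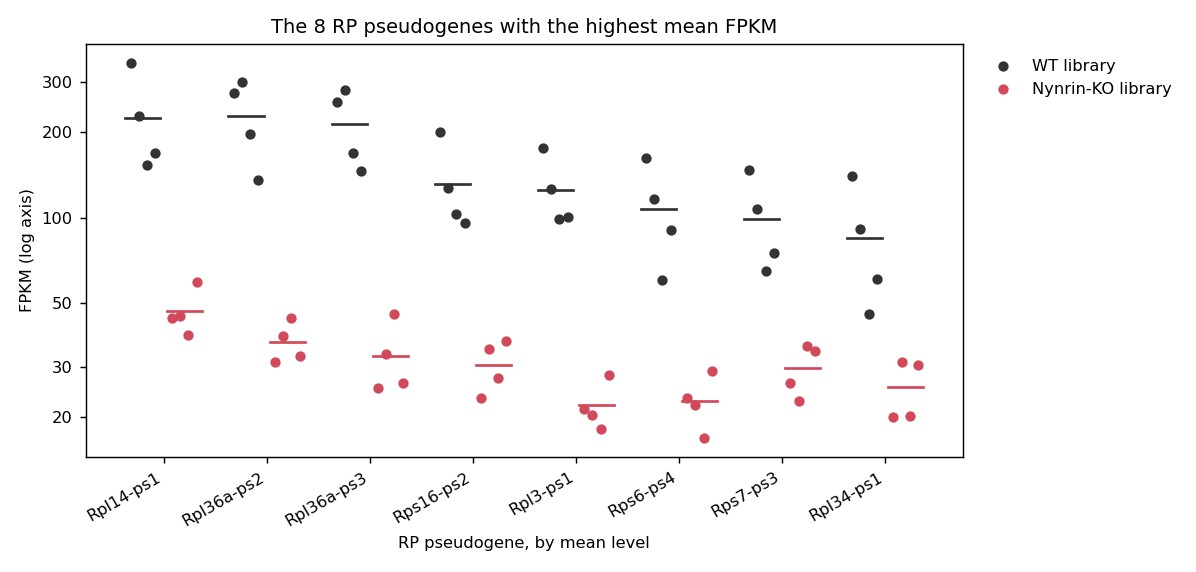
FPKM (log axis) of the 8 RP pseudogenes with the highest mean level, with a point for each library (replicates 1 to 4 from left to right) and a bar for the mean of each group of 4. For each of the 8 pseudogenes the 4 Nynrin-KO libraries lie below the 4 WT libraries.

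Relative to the reads of the parent, WT and Nynrin-KO overlapped for 7 of the same 8 copies. Rpl14-ps1 drew 22.4, 23.04, 26.5 and 22.2 reads for every 100 reads of Rpl14 in WT1 to WT4 and 21.8, 22.7, 27.1 and 21.9 in KO1 to KO4. Rps16-ps2 drew 8.86 to 12.5 in WT and 7.73 to 12.1 in Nynrin-KO for every 100 reads of Rps16. Rpl36a-ps2 drew 24.1, 28.9, 33.3 and 21.01 reads for every 100 of Rpl36a in WT1 to WT4 and 14.8, 19.1, 29.5 and 18.9 in KO1 to KO4. Rpl36a-ps3 drew 22.4, 27.05, 28.5 and 22.6 in WT and 12.03, 16.5, 30.7 and 15.1 in Nynrin-KO. For both copies of Rpl36a, KO1, KO2 and KO4 lay below every WT library and KO3 alone overlapped them (log2 ratios -0.39 and -0.50, exact permutation p = 0.171 for each). Rpl3-ps1 was the exception among the 8 in that its groups did not overlap, at 6.15 to 7.57 reads in WT and 5.22 to 5.74 in Nynrin-KO for every 100 of Rpl3.

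**Figure D3:**
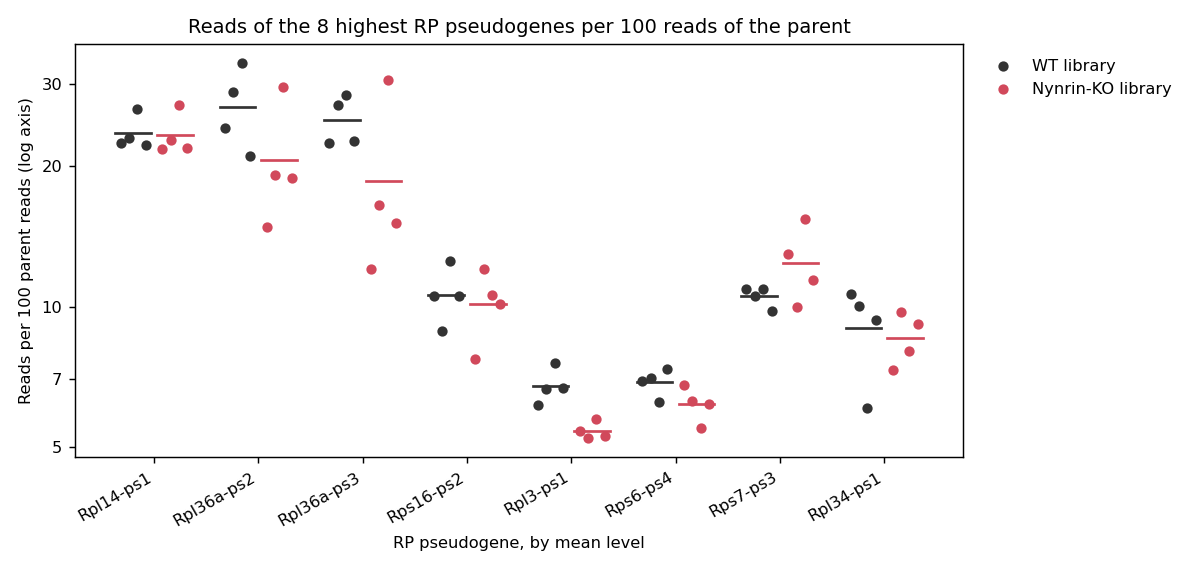
Reads of the same 8 RP pseudogenes for every 100 reads of the parent gene (log axis), with a point for each library and a bar for the mean of each group of 4. WT and Nynrin-KO points overlap except for Rpl3-ps1, which sits at 5.22 to 5.74 in Nynrin-KO and 6.15 to 7.57 in WT.

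Over all members, the log2 ratio of pseudogene to parent was tested by an exact two-sided permutation test, whose smallest p of 0.0286 cannot pass an adjustment over 152 members unless many members reach it. No member passed (18 reached an unadjusted p of 0.0286, adjusted p = 0.241). Groups did not overlap for 12 members with a higher ratio in Nynrin-KO (7.89%) and 6 with a lower ratio (3.95%). Among 107 other named pseudogenes with a tested parent these shares were 5.61% and 2.8%, so the members' shares are near the background.

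The members whose ratio was higher in Nynrin-KO by the most lay near 1 FPKM. Rps16-ps3, 91.4% identical to Rps16, was at 0.274, 1.92, 0 and 2.89 FPKM in WT1 to WT4 and at 1.91, 0.492, 2.48 and 0 FPKM in KO1 to KO4, from at most 22 reads in any library, while the log2 ratio was 2.001 higher in Nynrin-KO. Rpl19-ps3, Rpl38-ps1 and Rpl31-ps11 had mean levels of 0.769 to 1.08 FPKM in WT and 0.475 to 1.05 FPKM in Nynrin-KO, and their log2 ratios were higher by 1.89, 1.78 and 1.69. With a pseudocount of 0.1 in place of 1 the difference was 2.104 for Rps16-ps3, 1.34 for Rpl19-ps3, 1.012 for Rpl38-ps1 and 2.11 for Rpl31-ps11. None of these 4 copies passed limma (adjusted p from 0.44 to 0.988), and their WT and Nynrin-KO values overlap.

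At the other end, 4 members had the ratios lowest in Nynrin-KO relative to WT. Rpl15-ps3, identical to the large-subunit gene Rpl15, was at 43.7, 28.3, 36.5 and 23.3 FPKM in WT1 to WT4 and at 5.83, 3.46, 3.56 and 6.52 FPKM in KO1 to KO4 (log2 difference -2.54, SE 0.26, limma adjusted p = 0.00105). Its parent fell by 1.77, and the copy drew 2.40 to 4.38 reads for every 100 of Rpl15 in WT and 1.09 to 1.88 in Nynrin-KO, without overlap. Rpl35a-ps6, 1 base different from Rpl35a, was at 15.6, 6.36, 4.59 and 10.1 FPKM in WT and at 0.95, 2.08, 0 and 1.78 FPKM in Nynrin-KO (-2.21, adjusted p = 0.00692), from at most 17 reads in a Nynrin-KO library.

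The copies of Rps10 stood far above the gene they are named after. Rps10-ps2, 98.99% identical to Rps10 and with no other gene at its place, was at 125, 79.8, 39.0 and 54.3 FPKM in WT1 to WT4 and at 12.8, 14.9, 5.52 and 18.5 FPKM in KO1 to KO4 (log2 difference -2.42, SE 0.43, limma adjusted p = 0.00475). Rps10-ps1, 98.8% identical, was at 40.8, 32.5, 20.6 and 23.1 FPKM in WT and at 7.67, 7.97, 12.2 and 9.08 FPKM in Nynrin-KO (-1.54, SE 0.25, adjusted p = 0.00335). Rps10 itself, which encodes a small-subunit protein, was listed at 1.43, 0.796, 0 and 0.523 FPKM in WT and at 0.357, 0.636, 0 and 0.314 FPKM in Nynrin-KO, from 42 reads in WT1 and at most 13 in any other library. In WT1 the 2058 reads of Rps10-ps2 thus stand beside 42 of the parent.

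Rps10 is an RP gene whose exons are shared with a second gene model on the same strand. In GENCODE M21, 20.6% of its exonic bases also belong to RPS10-NUDT3, a model that joins it to its neighbour. At least 20% of exonic bases are shared in this way in 4 RP genes, namely Rpl24 with Gm28037 (47.0%), Rpl13a with Gm45713 (29.4%), Rpl36al with Gm49383 (24.5%) and Rps10. Their mean levels ran from 0.507 to 6.73 FPKM. The other 83 genes, from the RP gene list and the parents of the members, had a median of 235 FPKM. Those 83 ran from 0.218 to 2294 FPKM. Whether reads over shared exons were left uncounted was not tested.

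Rpl36a-ps3 belongs to this group through Rpl36al. Rpl36al was at 5.52, 6.98, 3.19 and 4.73 FPKM in WT1 to WT4 and at 1.65, 1.94, 3.003 and 2.05 FPKM in KO1 to KO4, so its copy of 99.7% identity stood above it in each of the 8 libraries. In WT1 the copy held 2712 reads and Rpl36al 233. Rpl36al had a log2 difference of -0.93 (limma adjusted p = 0.0169, but 0.107 without WT1 and KO1). Rpl13a-ps1, 95.3% identical to Rpl13a, did not stand above its parent as these copies did, with 0.79, 6.003, 4.16 and 3.41 FPKM in WT and 3.28, 0.283, 0.894 and 0.683 FPKM in Nynrin-KO (limma adjusted p = 0.153). It lay below Rpl13a, at 6.81 to 15.9 FPKM in WT and 2.09 to 4.56 FPKM in Nynrin-KO, in every library but KO1.

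Resemblance also went with how the members differed between the groups. Level fell over the same classes, with medians of 26.2, 9.90, 2.88 and 1.92 FPKM from the identical copies down. Resemblance and level therefore cannot be told apart in the counts that follow. Of the 13 identical copies 12 were lower in Nynrin-KO, of the 41 at 99% to under 100% identity 34 (82.9%), of the 64 at 95% to under 99% 27 (42.2%), and of the 34 under 95% 5 (14.7%, where 13.8% of all features were). Identity is to the named parent. The 5 thus include Rpl36a-ps3, which lies nearer to Rpl36al, and Rpl18-ps1, which did not align to Rpl18. The median log2 differences were -2.07, -1.54, -1.18 and -0.76, while the median of their parents lay between -1.64 and -1.78 in each class. On this scale the differences of features at low level are understated. With voom on recovered reads the medians were -2.17, -1.94, -2.02 and -1.75 and the counts 13, 36, 43 and 7, so the order of the medians was not kept there, and the class under 95% was again called least often.

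The exception among the identical copies was Rps12-ps3, a copy of the small-subunit gene Rps12. It was at 21.3, 14.3, 0 and 11.3 FPKM in WT1 to WT4 and at 5.33, 2.74, 0 and 4.58 FPKM in KO1 to KO4 (log2 difference -1.25, limma adjusted p = 0.374). The shallow libraries WT3 and KO3 are both at 0, and without them it was lower (-1.66, adjusted p = 0.00544).

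**Figure D4:**
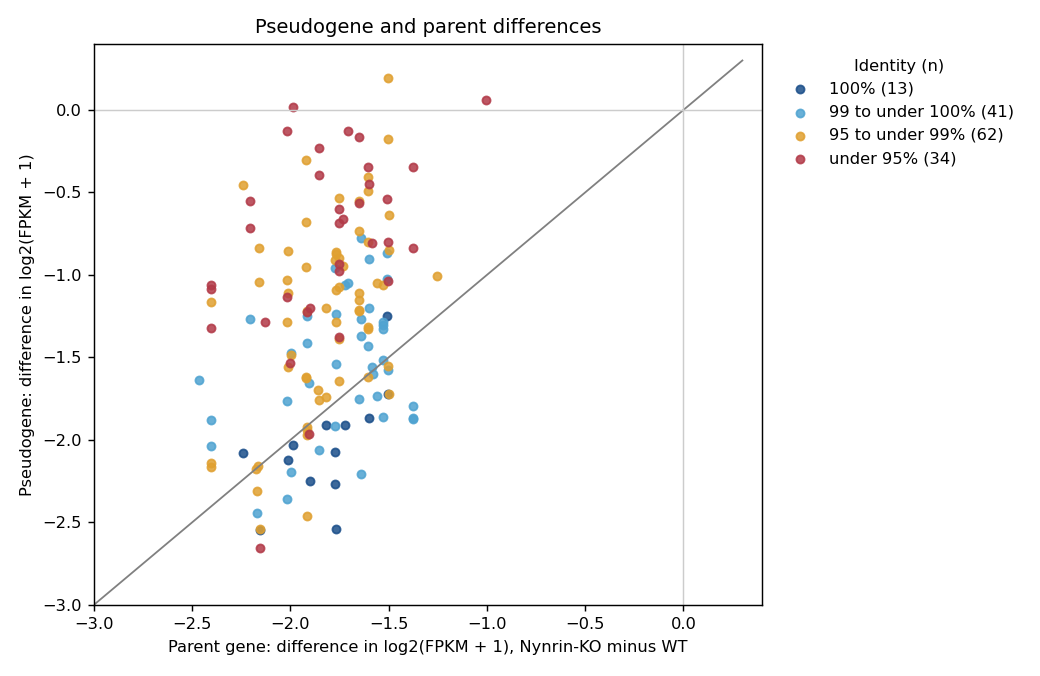
Difference in log2(FPKM + 1) between Nynrin-KO and WT of each of 150 RP pseudogenes (vertical axis) against that of its parent gene (horizontal axis), coloured by identity to the parent, with the line of equal differences. Identical copies lie near or below the line and copies under 95% mostly above it. On this scale the differences of copies at low level are understated.

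The members were compared each with its parent in the same fit. The difference of the copy lay within 0.5 of that of its parent on the log2 scale in 12 of 13 identical copies, in 27 of 41 copies of 99% to under 100%, in 27 of 62 of 95% to under 99%, and in 5 of 34 under 95%. The copy fell less than its parent in 2, 27, 53 and 32 of them. Both sets of counts are on log2(FPKM + 1), which understates the differences of copies at low level. They therefore do not show that such copies fell less in proportion. With voom on recovered reads the median of the class under 95% was -1.75, and the median of its parents in the fit reported was -1.75. Both copies of Rps10 are left out here, since their parent was not tested.

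The 5 members under 95% identity that were lower in Nynrin-KO are Rpl36a-ps3, Rpl18-ps1, Rps15-ps3, Rps2-ps5 and Rps2-ps9. Rpl18-ps1 was at 6.10, 9.69, 6.79 and 7.29 FPKM in WT1 to WT4 and at 3.01, 2.06, 4.17 and 1.59 FPKM in KO1 to KO4 (log2 difference -1.22, limma adjusted p = 0.00694). Rps2-ps9, 93.1% identical to Rps2, was at 5.55, 8.07, 10.5 and 5.64 FPKM in WT and at 2.69, 2.74, 3.99 and 2.24 FPKM in Nynrin-KO (-1.09, SE 0.23, adjusted p = 0.00916). Its groups do not overlap, its log2 ratio to Rps2 was 1.32 higher, and 20.7% of its windows occur in another gene.

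The classes also ordered the libraries differently. Over the identical copies the median was 64.6, 45.1, 36.4 and 26.1 FPKM in WT1 to WT4 and 9.43, 10.8, 7.13 and 9.22 FPKM in KO1 to KO4. Over the copies under 95% identity it was 0.532, 3.05, 4.32 and 1.99 FPKM in WT and 1.002, 0.221, 2.73 and 0.291 FPKM in Nynrin-KO. The identical copies thus peaked in WT1, while the least similar copies were lowest in WT1, KO2 and KO4, the deepest libraries with little Gm10800, and highest in WT3 and KO3, the shallowest with the most Gm10800.

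Counts of members show the same split within each group. WT1 was the highest WT library for 12 of 13 identical copies and 33 of 41 copies of 99% to under 100% (33.7% of all features), but for 0 of 34 copies under 95%. WT1 was the lowest WT library for 28 of those 34 (28.2% of all features). KO2 and KO4 both lay below KO1 and KO3 for 23 of the 34 (19.1% of all features) and for 1 of 13 identical copies. Among the 1482 other processed pseudogenes WT1 was lowest for 51.3% and KO2 and KO4 were both lower for 47.6%. WT1 was also the lowest WT library for each of the mature neutrophil markers. The part of depth, of cell content and of the material behind Gm10800 in these levels was not tested.

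**Figure D5:**
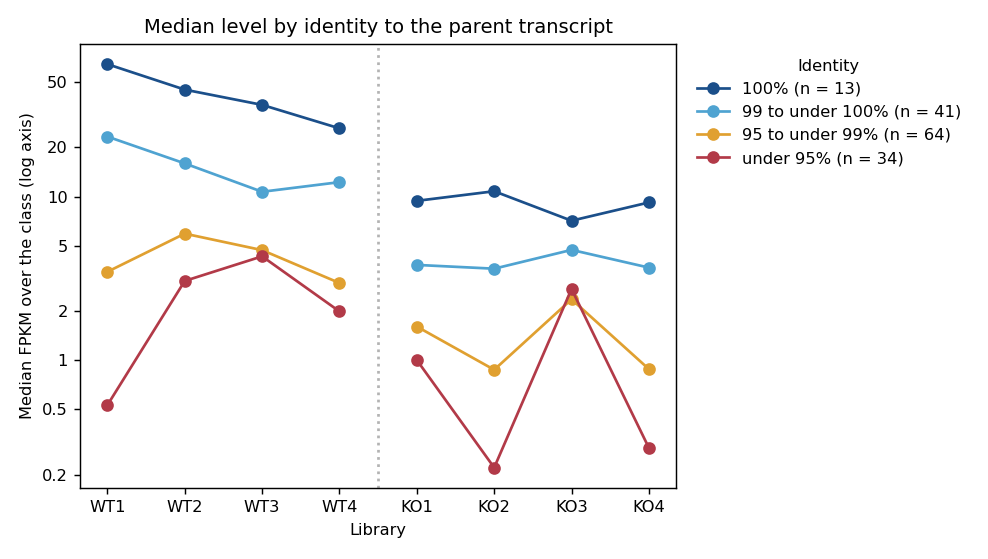
Median FPKM (log axis) of the RP pseudogenes in each identity class by library, with WT libraries left and Nynrin-KO libraries right of the dotted line. Identical copies are highest in WT1, at 64.6 FPKM, whereas copies under 95% identity are lowest in WT1, KO2 and KO4 and reach their maximum of 4.32 FPKM in WT3.

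Single members of low identity show this pattern in whole or in part. Rpl32-ps, 94.2% identical to Rpl32 and chosen after its values were seen, was at 1.26, 11.4, 23.7 and 6.40 FPKM in WT1 to WT4 and at 0.776, 0.213, 6.71 and 0.342 FPKM in KO1 to KO4 (limma adjusted p = 0.0961). Rps19-ps11, the member with no 50-base window in another gene, was at 1.33, 3.26, 4.71 and 2.14 FPKM in WT and at 0.487, 0.701, 5.06 and 0.724 FPKM in Nynrin-KO (adjusted p = 0.311), from at most 19 reads in a library. In both copies WT1 was the lowest WT library and KO3 the highest Nynrin-KO library. KO2 and KO4 were both below KO1 in Rpl32-ps, but in Rps19-ps11 KO1 was the lowest Nynrin-KO library.

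The log2 difference was above 0 in 3 members, namely Rpl31-ps11, Rps27-ps1 and Rps16-ps3, with limma adjusted p from 0.743 to 0.988. Rps27-ps1, a copy of the small-subunit gene Rps27 that is 94.7% identical to it, was at 11.1, 15.5, 0 and 16.5 FPKM in WT1 to WT4 and at 6.86, 5.82, 11.1 and 5.38 FPKM in KO1 to KO4. The log2 difference of 0.06 (limma adjusted p = 0.967) rests on the 0 in WT3, and without WT3 it was -0.92 (adjusted p = 0.0332).

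Members that reached 1 FPKM in the 4 WT libraries and in no Nynrin-KO library had to be lower. Rpl13-ps3 was at 2.72 to 6.53 FPKM in WT and at 0 to 0.845 FPKM in Nynrin-KO, Rps4x-ps at 2.19 to 5.88 and 0 to 0.82 FPKM, Rpl30-ps10 at 2.04 to 5.87 and 0 to 0.75 FPKM, and Rps15a-ps5 at 1.48 to 5.84 and 0 to 0.883 FPKM. For these 4 the zero was in KO3, where 34 of the 152 members were at 0, against 0 to 12 in the other 7 libraries. In KO3, 3 reads correspond to 1.64 FPKM on a 1 kb transcript and to more on a shorter one, and the part of depth in these zeros was not tested.

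Rps2-ps10 was the called member with the smallest limma p. This copy of Rps2, the gene of a small-subunit protein, is annotated as a transcribed processed pseudogene and 99.4% identical over 96.8% of its length. It was at 20.5, 16.0, 15.8 and 12.3 FPKM in WT1 to WT4 and at 2.62, 2.83, 3.40 and 3.68 FPKM in KO1 to KO4 (log2 difference -2.04, SE 0.18, adjusted p = 0.000994). The groups lie far apart for their spread, and the copy drew 0.81 to 1.30 reads for every 100 of Rps2 in WT and 0.881 to 1.72 in Nynrin-KO.

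Libraries that stand apart changed how many members were called, not the direction of the calls. Within the 5 libraries where Gm10800 reached 10000 FPKM, 34 of 133 members tested were lower and 0 higher, where 6.42% and 1.9% of all features were. There the called members were 8 of 12 identical copies, 15 of 36 of 99% to under 100%, 10 of 52 of 95% to under 99% and 1 of 33 under 95%. Without WT1 and KO1, 50 of 121 members tested were lower and 0 higher, where 7.15% and 6.72% of all features were. Without WT3 and KO3, 82 of 101 were lower and 0 higher, where 18.3% and 16.8% of all features were.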

How the data were processed

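The authors deposited 1 table of 48500 genes with a value column for each library and no unit in its header. FPKM is the unit inferred for the deposited values: multiplied by transcript length (the longest in GENCODE M21), the columns add up to nearly equal totals. Dividing by 1 step a library, 99.4% to 99.6% of the checked values came out as whole reads (tolerance 0.1 read), which set the depths and the read numbers printed. Per the submitters' processing notes the build was mm10 and the tools were HTSeq, Cufflinks 2.1.1 and Bowtie 0.12.9, whose roles are not stated. The sources used here give neither the use of strand nor the treatment of reads with several matches. Smart-Seq V4 reads carry no molecular identifiers, so read floors cover counting error only.

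The limma test (version 3.58.1 in R 4.3.3; trend, robust, two-sided) took features with at least 1 FPKM in at least 4 libraries, as log2(FPKM + 1) modelled on group alone, with Benjamini-Hochberg adjustment over all 12524 features. Sums and ratios were compared by exact permutation over 70 arrangements. Identity came from blastn 2.17.0 against RP gene transcripts, over aligned bases (gaps counted), and shared windows from exact matches of 50 bases. Plots and counts used Python 3.11.15, numpy 2.4.6, pandas 2.3.3 and matplotlib 3.10.9. The scripts were tested on simulated data.

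The members and the gene lists were chosen with earlier results of these data known. Named members are the 8 highest, the 6 smallest limma p in each direction, the 4 largest rises and falls of the ratio, up to 4 that passed through 1 group alone and the 3 at the threshold. Those outside the rule, chosen after their values were seen, are Rps2-ps9, Rpl32-ps, Rps12-ps3, Rpl13a-ps1, Rpl18-ps1, Rps19-ps11, Rpl36-ps10 and the genes Rpl36al and Rpl24. Some members and parents are not reported by name here. Alternatives covered the pseudocount, filter, scaling, limma options, weights, block, each library left out, threshold, voom and identity. Those added after seeing the data kept only the libraries high in Gm10800 or left out WT1 and KO1, or WT3 and KO3. Marker lists of leukaemia stem cells (2 of 5 higher, 2 lower), erythroid (3 of 3 tested higher), B (1 of 2) and T cells (0 of 1) were counted in the same limma fit, beside the neutrophil and macrophage lists.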

Additional observations from a re-analysis of the deposited data

Results flagged for a closer look

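Among 98 groups of 4 libraries checked, 6 held a library far from the other 3, and chance flags about 1 in 20 such groups. The groups flagged include those of Rpl32-ps, Rps19-ps11 and Rpl36-ps10, which were chosen after their values were seen. The count of 6 therefore cannot be judged against that rate. In WT, Rpl38-ps1 was at 0 FPKM in WT3 and at 1.31 to 1.41 FPKM in the other 3 libraries. In Nynrin-KO, KO3 was far above the others for 4 members. Rpl7-ps8 was at 2.70 FPKM there against 0.321 to 0.651 FPKM, Rpl7a-ps3 at 1.38 against 0.0875 to 0.265, Rpl32-ps at 6.71 against 0.213 to 0.776, and Rps19-ps11 at 5.06 against 0.487 to 0.724. Rpl36-ps10 was at 6.84 FPKM in KO1 and at 0 in KO2, KO3 and KO4. WT3 and KO3 are the shallowest libraries, where 3 reads on 1 kb give 1.53 and 1.64 FPKM, and more on a shorter transcript.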

How the results depend on the processing

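The count of 78 members lower in Nynrin-KO ran from 60 of 116 tested (without WT2) to 93 of 133 (without KO3) when single libraries were left out, with 0 higher throughout. As a share of the members tested it ran from 42.1% (64 of 152, without KO2) to 69.9% (without KO3), where 10.9% and 14.9% of all features were lower. It was 34 within the 5 libraries high in Gm10800 and 50 without WT1 and KO1, both with fewer samples, and 5 among members under 95% identity, which are fewer members. It was 116 with array weights, 99 with voom and 83 with quantile normalization, where 19.5%, 18.6% and 14.7% of all features were lower, against 13.8% in the fit reported. It was 54 at a threshold of 0.01, 59 with no filter (1.87% of all features) and 58 of 63 members at 1 FPKM in all libraries (19.7%). Parents lower ran from 47 to 51. The replicate numbers do not pair the libraries (correlations of same-numbered libraries -0.21, -0.39, 0.33 and 0.01, and WT3 alone correlated best with its own number), and with them as a replicate block 77 members were lower. The summed level differed by -2345 FPKM under the block too, with an exact permutation p of 0.125, the smallest possible there. It differed by -1947 within the libraries high in Gm10800, by -1963 when WT1 and KO1 were left out and by -2622 when WT3 and KO3 were, each with an exact permutation p of 0.1, the smallest those designs allow, and by -2604 to -1977 with single libraries left out. The ratio of sums differed by -1.53 to 0.434 FPKM per 100 parent FPKM with single libraries left out. No log ratio passed an adjusted p of 0.05, but with the block (smallest possible p 0.125), within the libraries high in Gm10800 and without either pair of libraries (0.1) none could. Rps27-ps1 turned from 0.063 to -1.116 without both WT3 and KO3, and ran from -0.918 (without WT3) to 0.459 with single libraries left out. Calls of single named features were otherwise gained in 14 and lost in 8 of the combinations run, and the causes were not tested. Among those lost, Rps10-ps1 had an adjusted p of 0.052 and Rps2-ps9 of 0.0915 within the libraries high in Gm10800. Members near 1 FPKM rest on under 3 reads in WT3 and KO3.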
